A study of Mus musculus with 2 samples.

Results

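Integrin adhesion adaptors are cytoplasmic proteins that link integrins, the receptors by which cells hold on to matrix and to other cells, with the actin cytoskeleton and with signalling kinases. The 9 genes described here, of 32285 genes in the deposited tables, are Tln1, Vcl, Zyx, Pxn, Fermt3, Ptk2b, Apbb1ip, Fyb and Skap2, found by their symbols. They were measured by droplet sequencing of the 3′ ends of transcripts in CD45+ cells sorted from the brains of 12-week-old mice. All values rest on counts of unique molecular identifiers (UMIs), labels that stand for 1 captured RNA molecule each.

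The study asked what the Arp2/3 complex, which builds branched actin, does in microglia. The 4 control mice were Cre-negative Arpc4 fl/fl littermates, and the 4 Arpc4ΔCx3cr1 mice were Arpc4 fl/fl with the Tg(Cx3cr1-Cre) transgene, so both groups carried the floxed gene and only the second carried Cre. The Cx3cr1 promoter drives Cre in brain myeloid cells from the start of their development and not in microglia alone, and no Cre-only mice were in this experiment. By imaging, the study did compare Tg(Cx3cr1-Cre) Arpc4+/+ mice with Cre-negative Arpc4 fl/fl mice. It reported comparable microglial numbers and ramification and no activation by Cre. The cells of each mouse carried a tag of their own and all mice shared 1 library, with 5251527 to 12878691 UMIs per mouse. Of 19863 cells kept, 15746 were microglia-like, 7768 from control and 7978 from Arpc4ΔCx3cr1 mice, and all 13 markers of the microglia list were detected in them. Their summed level was 36381 to 37181 CPM (UMIs of a gene scaled to a fixed total of UMIs per sum of cells) in control and 28074 to 29902 CPM in Arpc4ΔCx3cr1 mice, with 2 of the 13 higher in the latter. Arpc4 itself had 236, 216, 225 and 223 CPM in control and 153, 149, 145 and 137 CPM in Arpc4ΔCx3cr1 microglia-like cells (scaled by TMM, a method that sets the bulk of genes equal between mice). Whether its counted 3′ ends lie in the deleted part was not tested. KO1 had 1406 CPM of Xist, which marks female cells, beside 3.55 to 14.6 CPM in the other 7 mice. The study names 1 female among its Arpc4ΔCx3cr1 mice and left that mouse out, and KO1 is the only mouse here with such a level. Results are given with all 8 mice, and also without KO1 for Fermt3 and Zyx. Microglia-like cells of Arpc4ΔCx3cr1 mice also held more UMIs (medians of 4179 to 4718 per cell, against 3716 to 3985) and more mitochondrial UMIs (0.891 to 1.09%, against 0.477 to 0.525%), whose part in the results was not tested. Marker sums of other cells also moved in them, without a test of their part. From control to Arpc4ΔCx3cr1 mice they went from 166 to 177 CPM to 56.7 to 111 CPM for CAM markers (3 of 7 genes higher), from 234 to 249.9 CPM to 79.2 to 146 CPM for B cell markers (3 of 6 higher) and from 388 to 408 CPM to 432 to 621 CPM for granulocyte markers (2 of 6 higher). Dendritic cell markers went from 5.25 to 7.85 CPM to 15.3 to 20.9 CPM (4 of 6 higher, Ccr7 at 0) and brain tissue markers from 27.2 to 37.3 CPM to 42.2 to 45.7 CPM (3 of 7 higher, Cldn5 at 0).

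Integrins are switched on from inside the cell. The small GTPase Rap1 and its effector RIAM, the product of Apbb1ip, bring talin (Tln1) to the integrin tail, where kindlin-3 (Fermt3), the kindlin of blood cells and microglia, binds beside it. Vinculin (Vcl) then ties talin to actin, while paxillin (Pxn) and zyxin (Zyx) are LIM domain scaffolds of the adhesion plaque. PYK2 (Ptk2b) is the kinase related to FAK that signals from it. ADAP (Fyb) and SKAP-HOM (Skap2) form a scaffold that couples immune receptors to integrins and binds RIAM.

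The 9 genes lie on 7 chromosomes of mm10 (GENCODE vM21, GRCm38) and are protein coding. Apbb1ip (ENSMUSG00000026786) spans chromosome 2, 22774094 to 22875653, on the plus strand, Tln1 (ENSMUSG00000028465) chromosome 4, 43531519 to 43562691, on the minus strand, and Pxn (ENSMUSG00000029528) chromosome 5, 115506676 to 115555987, on the plus strand. Zyx (ENSMUSG00000029860) lies on chromosome 6, 42349630 to 42360213, on the plus strand, and Skap2 (ENSMUSG00000059182) on the same chromosome, 51857422 to 52012549, on the minus strand. Vcl (ENSMUSG00000021823) lies on chromosome 14, 20929398 to 21033676, on the plus strand, and Ptk2b (ENSMUSG00000059456) on chromosome 14, 66153257 to 66281052, on the minus strand. Fyb (ENSMUSG00000022148) occupies chromosome 15, 6522853 to 6663313, on the plus strand, and Fermt3 (ENSMUSG00000024965) chromosome 19, 6998958 to 7019469, on the minus strand. Pxn holds the sense-strand gene Gm13840 inside its span and Fyb overlaps Gm7666 on its own strand, and whether reads were split between these pairs was not tested.

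RefSeq promoter windows, 250 bases before to 50 after the start in GRCm38.p6, were found for 7 of the 9 genes. They are shown for genes that rose (Fyb, Skap2) and that did not (Apbb1ip, Zyx, Vcl), since members that moved in one direction might share letters at their start. Capitals mark matches on either strand to the CArG box of serum response factor, to GAGGAAGT, the letters that PU.1 prefers, or to TGANTCA, the letters of AP-1. The windows are chr15:6579597-6579896 (plus strand), chr6:52012500-52012799 (minus), chr2:22774077-22774376 (plus), chr6:42349578-42349877 (plus) and chr14:20929148-20929447 (plus).
Fyb: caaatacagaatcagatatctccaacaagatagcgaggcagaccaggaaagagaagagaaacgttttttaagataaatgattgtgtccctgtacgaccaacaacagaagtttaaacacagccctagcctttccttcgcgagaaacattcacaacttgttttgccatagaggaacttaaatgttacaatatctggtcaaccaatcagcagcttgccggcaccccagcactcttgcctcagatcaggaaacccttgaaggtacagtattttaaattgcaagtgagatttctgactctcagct
Skap2: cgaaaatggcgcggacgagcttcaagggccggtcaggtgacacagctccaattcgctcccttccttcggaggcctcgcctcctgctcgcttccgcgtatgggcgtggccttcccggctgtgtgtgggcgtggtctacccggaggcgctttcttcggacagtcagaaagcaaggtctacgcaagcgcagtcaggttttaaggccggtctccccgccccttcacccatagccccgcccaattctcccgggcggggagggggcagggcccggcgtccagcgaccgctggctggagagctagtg
Apbb1ip: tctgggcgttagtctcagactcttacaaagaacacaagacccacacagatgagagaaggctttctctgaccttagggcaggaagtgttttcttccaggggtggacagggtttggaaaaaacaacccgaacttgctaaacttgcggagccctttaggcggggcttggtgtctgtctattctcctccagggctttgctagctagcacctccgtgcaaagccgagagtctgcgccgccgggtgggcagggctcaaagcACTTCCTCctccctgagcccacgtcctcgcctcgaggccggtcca
Zyx: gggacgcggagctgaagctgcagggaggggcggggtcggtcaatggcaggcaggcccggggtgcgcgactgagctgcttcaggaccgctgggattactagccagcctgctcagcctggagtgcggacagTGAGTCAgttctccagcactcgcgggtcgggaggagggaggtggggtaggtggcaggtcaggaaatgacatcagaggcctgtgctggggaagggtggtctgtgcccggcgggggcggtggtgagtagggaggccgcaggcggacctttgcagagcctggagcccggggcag
Vcl: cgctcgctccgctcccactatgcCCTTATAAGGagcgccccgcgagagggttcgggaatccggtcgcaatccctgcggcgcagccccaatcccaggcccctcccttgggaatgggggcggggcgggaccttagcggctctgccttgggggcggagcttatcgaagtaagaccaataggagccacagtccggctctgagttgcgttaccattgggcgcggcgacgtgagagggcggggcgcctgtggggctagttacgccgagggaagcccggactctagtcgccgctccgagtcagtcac
The Vcl window held a CArG box, as did 1.63% of 32851 promoter windows of the same length, the Apbb1ip window held GAGGAAGT on its minus strand (3.20% of all windows), and the Zyx window held TGANTCA (7.81%). The windows of Fyb, Skap2, Tln1 and Fermt3 held none of the 3 motifs. The Fyb window begins 3′ of the start of the annotated gene span, so it shows 1 of its starts.

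In microglia-like cells the 9 adaptors did not move as 1 group. Fyb, Ptk2b and Skap2 rose in Arpc4ΔCx3cr1 mice, by 1.70-, 1.6003- and 1.36-fold. Zyx, Pxn, Apbb1ip, Tln1 and Fermt3 fell, with control levels 1.61-, 1.596-, 1.35-, 1.26- and 1.14-fold above those of Arpc4ΔCx3cr1 mice. Vcl was the member that did not pass the test. Of the 9 genes, 8 had an adjusted p under 0.05 in edgeR's quasi-likelihood test on the sums per mouse, 3 higher and 5 lower. In the same test 45.2% of the 12637 genes tested were called (22.5% of the genes tested higher and 22.7% lower), so a called gene is common in this comparison. The values of the 4 control and 4 Arpc4ΔCx3cr1 mice did not overlap for 7 members, beside 43.3% of all genes tested. All 9 members passed the filter on low counts. Without KO1, 8 members were called as well, Fermt3 with an adjusted p of 0.00219 in edgeR. That fit called 6259 of the 12771 genes tested, against 5716 of 12637 with all mice.

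**Figure D1:**
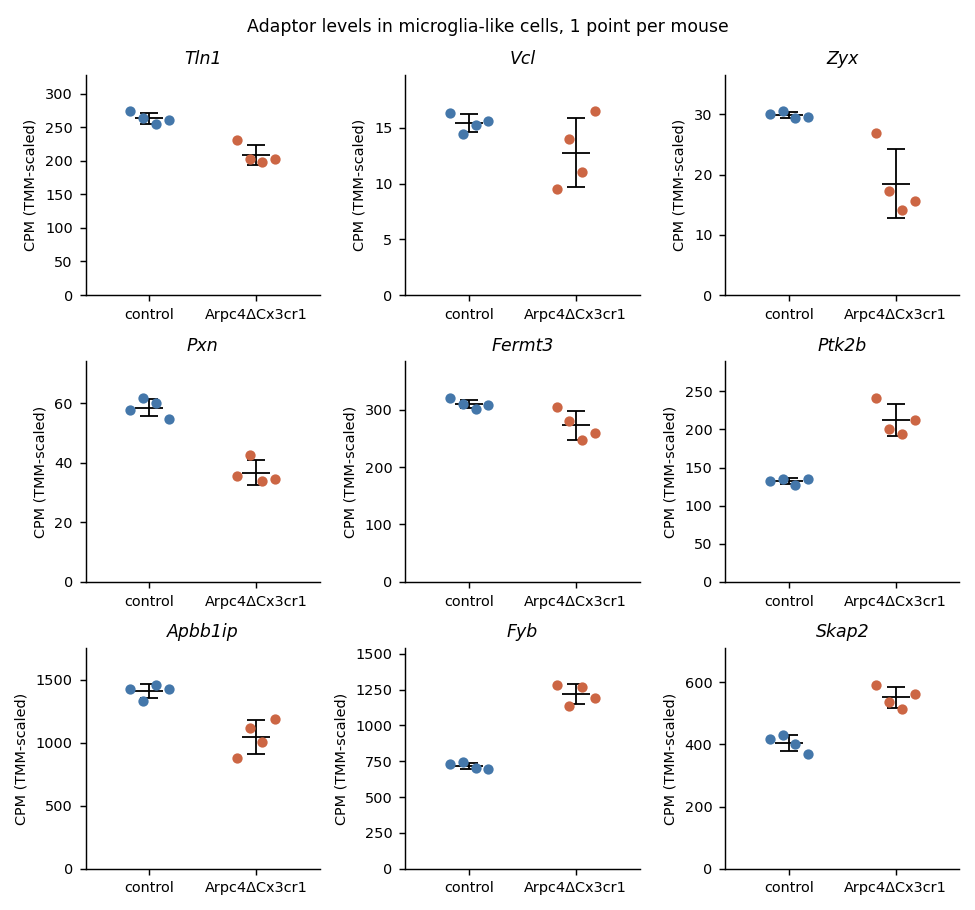
Levels of the 9 adaptors in microglia-like cells, in CPM scaled by TMM (y axis, from 0), for control and Arpc4ΔCx3cr1 mice; each point is 1 mouse and the bars are the mean ± SD of 4 mice. Fyb, Ptk2b and Skap2 sit higher in every Arpc4ΔCx3cr1 mouse than in any control mouse, and Pxn, Zyx, Tln1 and Apbb1ip lower.

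Of the members tied to the path from Rap1 to talin, Apbb1ip, Tln1 and Fermt3 fell, beside 22.7% of all genes tested that were called lower. Apbb1ip had 1426, 1334, 1459.9 and 1431 CPM in the control mice and 880, 1122, 1004 and 1191 CPM in the Arpc4ΔCx3cr1 mice (CPM scaled by TMM, as for all levels per mouse in microglia-like, CAM-like and T cell-like cells). The groups did not overlap, KO1 was the lowest, and the level fell by 0.43 on the log2 scale (SE 0.09, edgeR adjusted p = 0.00241, n = 4 and 4). Tln1 had 274, 264, 255 and 260 CPM in control and 231, 202, 199 and 203 CPM in Arpc4ΔCx3cr1 mice. It fell by 0.33 (SE 0.06, edgeR adjusted p = 0.00105) without overlap, and KO1 stood above the other 3 Arpc4ΔCx3cr1 mice. Fermt3 had 320.0, 310.2, 302 and 308 CPM in control and 305, 280.0, 248 and 259 CPM in Arpc4ΔCx3cr1 mice, where KO1 lay within the control range. Its fall of 0.18 (SE 0.07, edgeR adjusted p = 0.0479) stood just inside the threshold, and 6 of 18 alternative settings kept it there.

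Of the plaque scaffolds Pxn and Zyx fell. Pxn had 57.7, 61.7, 59.99 and 54.9 CPM in control and 35.7, 42.8, 34.0 and 34.6 CPM in Arpc4ΔCx3cr1 mice, and fell by 0.67 (SE 0.08, edgeR adjusted p = 6.55e-05). Zyx had 30.1, 30.5, 29.3 and 29.6 CPM in control mice, close together. In Arpc4ΔCx3cr1 mice it had 27.0, 17.3, 14.2 and 15.6 CPM, so that KO1 lay close to the controls and the other 3 well below. It fell by 0.69 (SE 0.17, edgeR adjusted p = 0.00686), and by 0.93 with KO1 left out. Vcl had 16.3, 14.4, 15.3 and 15.6 CPM in control and 9.53, 13.995, 11.01 and 16.5 CPM in Arpc4ΔCx3cr1 mice, with overlap. Its log2 difference was -0.27 (SE 0.16, edgeR adjusted p = 0.192), and without KO4 it was -0.42 (adjusted p = 0.0374).

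The kinase and the ADAP scaffold went the other way. Fyb had 728, 742, 706 and 693 CPM in control and 1282, 1135, 1269 and 1193 CPM in Arpc4ΔCx3cr1 mice, far apart beside the spread within either group. Its log2 difference was 0.77 (SE 0.06, edgeR adjusted p = 2.49e-06). Skap2, whose product binds that of Fyb, had 418, 431, 401 and 371 CPM in control and 591, 537, 515 and 564 CPM in Arpc4ΔCx3cr1 mice. It rose by 0.45 (SE 0.07, edgeR adjusted p = 0.000268) and KO1 was the highest. Ptk2b had 132, 135, 127 and 136 CPM in control and 241, 201, 194 and 212 CPM in Arpc4ΔCx3cr1 mice. It rose by 0.68 (SE 0.07, edgeR adjusted p = 2.37e-05), again with KO1 highest.

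The 3 genes that rose share a long span. Fyb, Skap2 and Ptk2b span 140.5, 155 and 128 kb. Apbb1ip, which fell, spans 102 kb and Vcl 104 kb, while Zyx spans 10.6 kb and Fermt3 20.5 kb. Over all genes the median log2 difference was -0.07 for spans under 10 kb, -0.05 from 10 to 30 kb, 0.03 from 30 to 100 kb and 0.10 above 100 kb. The share of genes called higher was 35.3% above 100 kb and 19.98% under 10 kb. Relative to the median of their span class the log2 differences were 0.67 for Fyb, 0.58 for Ptk2b and 0.35 for Skap2, and -0.53 for Apbb1ip, -0.65 for Zyx and -0.71 for Pxn, so no member changed sign. The part of span in the values was not tested beyond this.

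The share of microglia-like cells with at least 1 UMI of a member moved in the same directions after each cell had been thinned to 2000 UMIs, with 283 control and 124 Arpc4ΔCx3cr1 cells left out as shallower. The share for Fyb was 71.8% ± 1.07 (SD, n = 4) in control and 83.6% ± 1.07 in Arpc4ΔCx3cr1 mice. The share for Skap2 went from 51.2% ± 2.37 to 59.8% ± 2.32 and that for Ptk2b from 21.4% ± 0.685 to 30.2% ± 2.22. In the other direction, the share for Apbb1ip went from 90.4% ± 0.583 to 79.1% ± 4.87 and that for Tln1 from 40.4% ± 0.988 to 31.1% ± 1.94. The share for Pxn was 10.9% ± 1.02 in control and 6.52% ± 0.988 in Arpc4ΔCx3cr1 mice, that for Zyx 6.02% ± 0.3997 and 3.42% ± 1.21, and that for Vcl 2.69% ± 0.263 and 2.02% ± 0.275. All 8 of these differences had an exact two-sided permutation p of 0.0286, the smallest that 4 against 4 mice allow, and an adjusted p of 0.0321 over the 9 members. Neither with nor without thinning was this test run over all genes, so no share of all genes stands beside these counts. For summed levels 43.3% of all genes tested did not overlap between the groups. Fermt3, at 46.3% ± 2.48 and 39.6% ± 3.45, had an exact permutation p of 0.0571. Vcl, whose summed level did not pass the test, was found in few cells, and without thinning its share was 5.63% and 5.26% (adjusted exact permutation p = 0.6). The thinning was a single random draw. After it, the lowest control share of Vcl (2.32%) lay close to the highest Arpc4ΔCx3cr1 share (2.24%), and other draws were not tested. Without thinning the share for Fyb was 86.2% in control and 94.1% in Arpc4ΔCx3cr1 mice, that for Apbb1ip 96.0% and 92.3%, and the lowest adjusted p was 0.0514 in the exact permutation test. The groups still did not overlap for Tln1, Pxn, Ptk2b, Fyb and Skap2, each at the smallest p that 4 against 4 mice allow. The unthinned difference was 17.1 percentage points for Ptk2b and 11.5 for Skap2, against 8.80 and 8.64 after thinning.

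Free RNA in the droplets can add to such shares, and whether it gave the counts below in lymphoid classes was not tested. Fyb, which B cells lack, was found in 4 of 42 B cell-like cells thinned to 2000 UMIs (9.52%, exact 95% interval 2.66 to 22.6%), and Skap2, whose relative Skap1 serves T cells, in 9 of 132 T cell-like cells (6.82%, 3.16 to 12.5%). The median depths were 3821 UMIs in these B cell-like, 3349 in these T cell-like, and 3903 (control) and 4567 (Arpc4ΔCx3cr1) in the microglia-like cells that entered the thinning. In the same 42 B cell-like cells Skap2 was found in 10 (23.8%, 12.1 to 39.5%). The microglial shares were 71.8 and 83.6% for Fyb and 51.2 and 59.8% for Skap2 in control and Arpc4ΔCx3cr1 mice. These intervals pool the cells of all mice, and the part of free RNA in the microglial shares was not tested. In empty droplets, barcodes with 1 to 100 UMIs, Apbb1ip had 621 CPM, Fyb 456, Skap2 304, Fermt3 232, Tln1 179, Ptk2b 96.8, Zyx 41.5, Pxn 40.4 and Vcl 8.62 CPM. Zyx was thus higher in empty droplets than in the microglia-like cells of any mouse (13.5 to 31.7 CPM by total UMIs), and Pxn was within their range (32.4 to 64.1 CPM). With 25% of every mouse's UMIs taken as free RNA of this composition, the log2 difference of Zyx became -1.32 and that of Pxn -0.86, and no member changed sign.

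**Figure D2:**
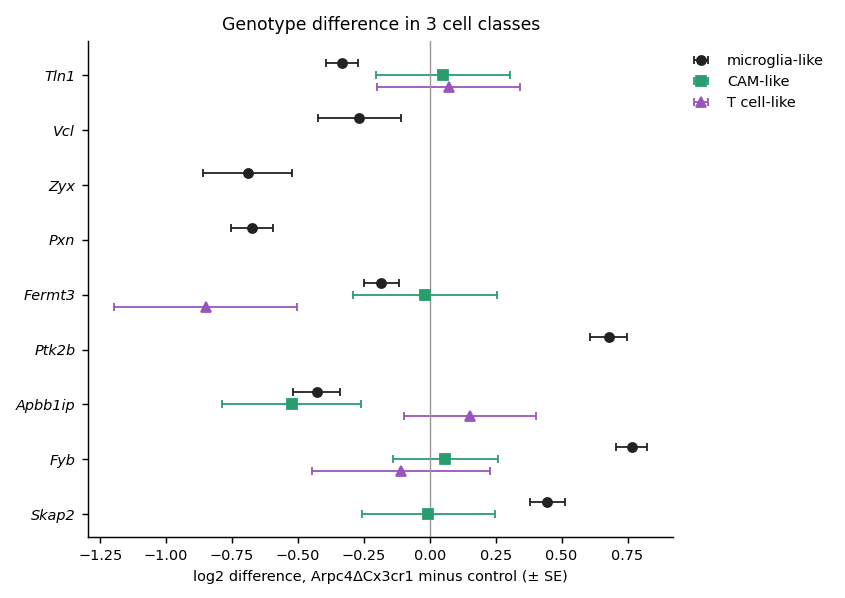
Log2 difference between Arpc4ΔCx3cr1 and control mice (x axis, ± SE computed from edgeR's test statistic) of each adaptor in microglia-like, CAM-like and T cell-like cells. Members without a symbol did not pass the count filter in that class. In microglia-like cells 3 members lie to the right of 0 and 6 to the left, and the bars of the other classes are wider.

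CNS-associated macrophages (CAMs) are myeloid cells at the borders of the brain, and the CAM-like class held 189 control and 72 Arpc4ΔCx3cr1 cells, with 12 to 75 cells per mouse. It joined a subcluster led by Cd209f and Lyve1 (113 control and 56 Arpc4ΔCx3cr1 cells) and one led by Negr1 and Col14a1 (76 and 16 cells), whose best matching marker list was that of microglia, and the part of this make-up in the class values was not tested beyond the alternative given for Fyb. Arpc4 did not pass the test in this class, with 301, 199, 250.1 and 254 CPM in control and 283, 260.4, 248 and 306 CPM in Arpc4ΔCx3cr1 mice (log2 difference 0.14, SE 0.25, edgeR adjusted p = 0.930). Of the 9 members 5 passed the filter there and 0 were called, beside 0.534% of the 2246 genes tested (0.401% higher and 0.134% lower). At an unadjusted p under 0.05 edgeR named 0 members, beside 201 of the 2246 genes. DESeq2 also called 0 members. Fyb had 1085, 1152, 1117 and 1049 CPM in control and 1459.6, 1258, 1010.4 and 904 CPM in Arpc4ΔCx3cr1 mice, which spread to both sides of the controls. Its log2 difference was 0.06 (SE 0.20, edgeR adjusted p = 0.961). Apbb1ip had 483, 477, 505 and 439 CPM in control and 305, 412, 461 and 183 CPM in Arpc4ΔCx3cr1 mice, a log2 difference of -0.52 (SE 0.26, adjusted p = 0.573).

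The difference between the cell classes was tested itself, with the mouse as a covariate. The genotype effect on Fyb was larger in microglia-like than in CAM-like cells by 0.91 on the log2 scale (SE 0.22, edgeR adjusted p = 0.00133), the only member of 9 called, beside 5.04% of the 11935 genes tested (4.21% higher and 0.821% lower). In that fit the median over all genes was 0.23, and Fyb stood 0.68 above it. With library totals in place of TMM the value was 0.60 (adjusted p = 0.0893), the median -0.08, and Fyb again 0.68 above it. With the subcluster led by Cd209f alone, a choice made after the data were seen that left 3 Arpc4ΔCx3cr1 mice with 10 cells, it was 0.99 (SE 0.29, adjusted p = 0.0286). For Arpc4 itself the difference between the classes was -0.59 (SE 0.29, adjusted p = 0.338), and the part of unequal loss of Arpc4 in the Fyb contrast was not tested. Skap2 showed 0.66 (SE 0.26, adjusted p = 0.130), and without KO2 0.89 (adjusted p = 0.0166). For Apbb1ip the difference between the classes was 0.30 (SE 0.27, adjusted p = 0.710), and -0.01 with library totals.

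T cell-like cells stem from another lineage, and 57 control and 85 Arpc4ΔCx3cr1 cells were found, 10 to 33 per mouse. Of the 4 members that passed the filter there 0 were called, beside 0.111% of the 898 genes tested. An unadjusted p under 0.05 was found for 1 member in edgeR, beside 44 of the 898 genes, and for 0 in DESeq2, beside 19 genes. That member was Fermt3, with 260, 261, 394 and 242 CPM in control and 234, 80.5, 127 and 160.1 CPM in Arpc4ΔCx3cr1 mice (log2 difference -0.85, SE 0.35, edgeR adjusted p = 0.868). Fyb had 477, 378, 311 and 579.9 CPM in control and 527, 121, 489 and 340.2 CPM in Arpc4ΔCx3cr1 mice, which overlapped. Between microglia-like and T cell-like cells the effects on 0 of 9 members differed past the threshold, beside 2.22% of 11728 genes (1.91% higher and 0.307% lower). At an unadjusted p under 0.05 edgeR named 2 members, beside 1014 of the 11728 genes. They were Fyb, larger in microglia-like cells by 0.86 (SE 0.34, adjusted p = 0.280), and Apbb1ip, lower by 0.65 (SE 0.33, adjusted p = 0.562). Vcl was at 0 in T cell-like cells of 7 of the 8 mice. The test planned for monocyte-like cells was not run, because the control mice had 6 to 8 such cells each, under the minimum of 10 set for a sum.

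**Figure D3:**
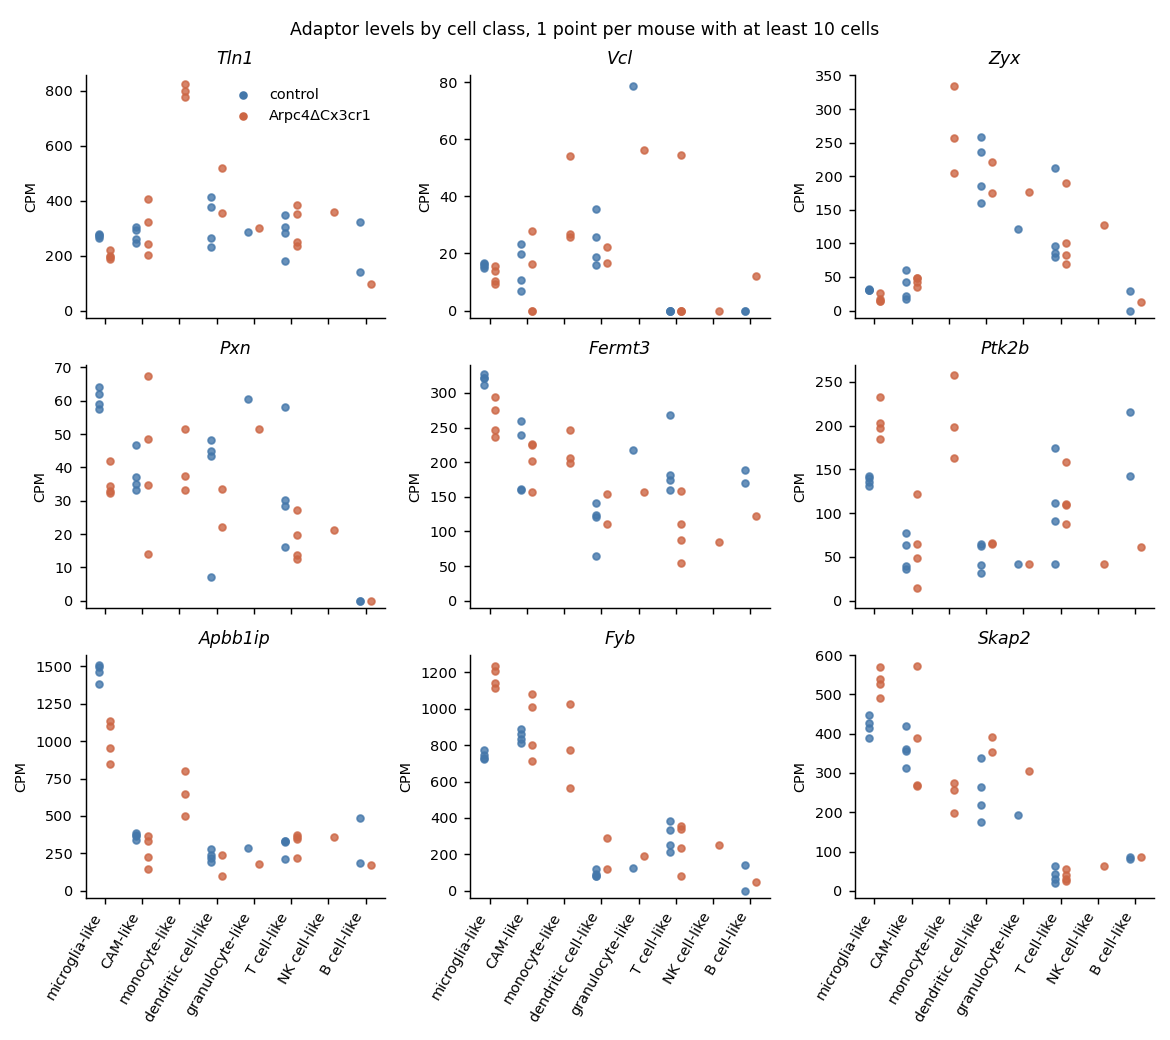
Level of each adaptor in CPM by total UMIs (y axis) in 8 cell classes (x axis), 1 point for each mouse with at least 10 cells of the class, control and Arpc4ΔCx3cr1 mice side by side. Apbb1ip separates microglia-like cells from the rest, Zyx and Tln1 are highest in monocyte-like cells, and Skap2 and Fyb are low in lymphoid classes.

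Across the sort the adaptors differed in the cell class that held most of them (CPM by total UMIs, mice with at least 10 cells, described without a test). Apbb1ip was the most microglial, with 847 to 1506 CPM over 8 mice in microglia-like cells, above the 500.3 to 798 CPM of 3 mice in monocyte-like cells and the 145 to 389 CPM in CAM-like cells. Among named classes Fyb was high in microglia-like (725 to 1234 CPM), CAM-like (713 to 1083 CPM) and monocyte-like cells (567 to 1024 CPM), whose ranges overlap. It was lower in T cell-like cells (81.6 to 383 CPM), and in B cell-like cells it ran from 0 to 142 CPM. Skap2 had 388 to 569.5 CPM in microglia-like and 266 to 573 CPM in CAM-like cells, which overlapped, and 198 to 275 CPM in monocyte-like cells, below the microglia-like range. It had 80.6 to 85.5 CPM in B cell-like and 19.3 to 63.9 CPM in T cell-like cells, without overlap.

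Tln1 and Zyx had another order. Tln1 reached 778 to 824 CPM in the monocyte-like cells of 3 Arpc4ΔCx3cr1 mice, above every other class, and 189 to 280 CPM in microglia-like cells, below or within the ranges of CAM-like (202 to 406 CPM) and T cell-like cells (181 to 385 CPM). Zyx had 204 to 335 CPM in monocyte-like, 160 to 258 CPM in dendritic cell-like and 69.2 to 212 CPM in T cell-like cells, while microglia-like cells had 13.5 to 31.7 CPM and lay below all 3. Fermt3 had 236 to 327 CPM in microglia-like cells and 64.4 to 154 CPM in dendritic cell-like cells, without overlap. Ptk2b was at 131 to 232 CPM in microglia-like and 163 to 257 CPM in monocyte-like cells, which overlapped, and at 14.01 to 122 CPM in CAM-like cells. Pxn was low everywhere, with 32.4 to 64.1 CPM in microglia-like cells and 0 UMIs in the B cell-like cells of 3 mice. Vcl was highest in the granulocyte-like cells of 2 mice (56.4 and 78.8 CPM).

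Over 43 sums of a class and a mouse, the genes whose log2 level followed a member most closely were found among 6698 genes. They share library and depth, and the coefficients describe cell classes more than mice. Skap2 was closest to Il13ra1 (Pearson r = 0.91), Rnf13 (0.90) and Hk2 (0.87), and Fyb to Ppm1h (0.87), Myo1f (0.87) and Fcho2 (0.86). Zyx was closest to Anxa2 (0.89), S100a6 (0.86) and Unc119 (0.85). Tln1 was closest to Capzb (0.82), Arpc2, a subunit of the Arp2/3 complex (0.80), and Cdc42, an upstream switch of actin assembly (0.79). Apbb1ip was closest to Dennd4a (0.83), Asph (0.83) and Golm1 (0.82), and Fermt3 to Cbl, Gcnt1 and Dusp6 (0.77, 0.76 and 0.76). Pxn (Arrb2, Stard3 and Itgam, 0.72, 0.72 and 0.69) and Ptk2b (Rhoq, Rapgef1 and Map2k1, 0.66, 0.66 and 0.65) had weaker matches, and Vcl lay under the lowest mean level used.

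**Figure D4:**
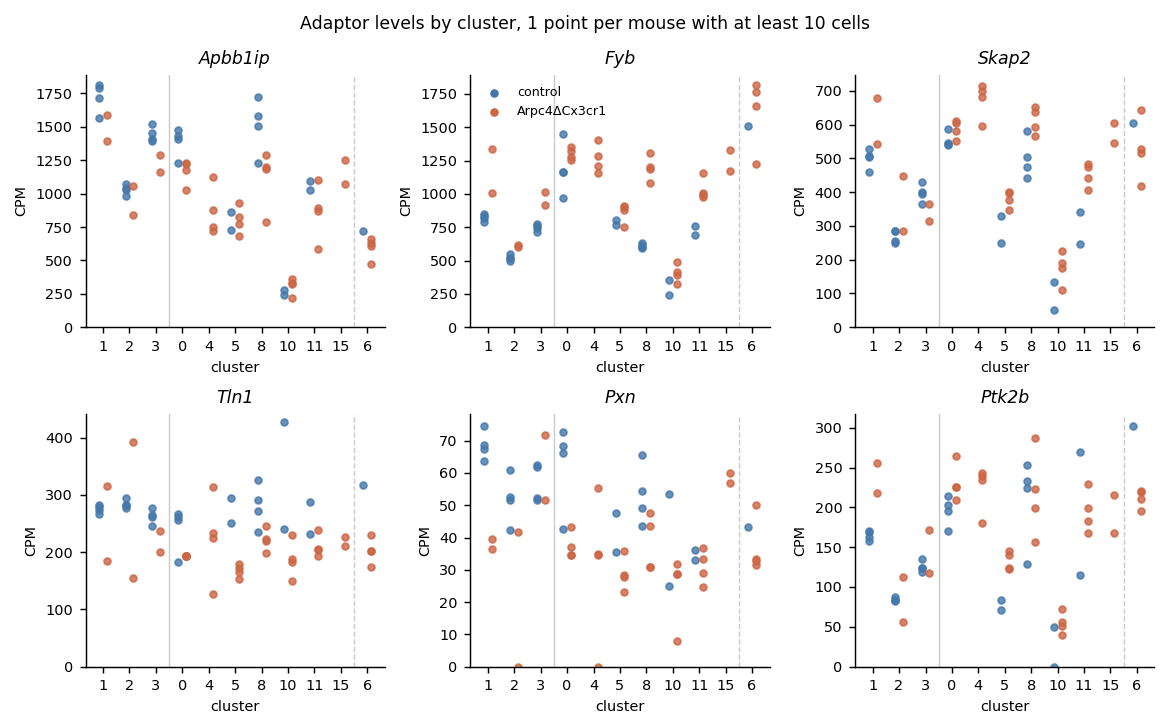
Level of 6 adaptors in CPM by total UMIs (y axis, from 0) in clusters (x axis), 1 point for each mouse with at least 10 cells in the cluster. Clusters 1, 2 and 3, left of the solid line, hold mostly control cells, those between the lines mostly Arpc4ΔCx3cr1 cells, and cluster 6, right of the dashed line, is led by Ms4a7 and globin genes. Cluster 10 lies lowest for Apbb1ip, Fyb, Skap2 and Ptk2b.

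The clusters of microglia-like cells, found without the adaptors and the adhesion lists among the clustered genes, also differed in them, described without a test. Clusters 1, 2 and 3 held mostly control cells (3.75, 3.09 and 4.43% of their cells came from Arpc4ΔCx3cr1 mice). In control mice Apbb1ip went from 1723 ± 110 CPM (SD, n = 4) in cluster 1 to 1032 ± 35.1 CPM in cluster 2, and Fyb from 824 ± 26.1 to 522 ± 21.2 CPM. Skap2 went from 499 ± 28.6 to 269 ± 18.6 CPM and Ptk2b from 165 ± 6.03 to 84.1 ± 2.23 CPM between the same clusters, while Tln1 stood at 275 ± 6.95 and 284 ± 6.91 CPM and overlapped. Zyx ran the other way, with 26.9 ± 1.85 CPM in cluster 1 and 40.6 ± 1.72 CPM in cluster 2. The median cell of cluster 1 held 4982 UMIs and that of cluster 2 held 2772 UMIs, and the part of depth in these levels was not tested.

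In Arpc4ΔCx3cr1 mice the largest cluster, cluster 0, had 1300.3 ± 41.9 CPM of Fyb, 587 ± 27.3 CPM of Skap2 and 1164 ± 95.6 CPM of Apbb1ip (n = 4). The 88 control cells of the same cluster had 1188 ± 197 CPM of Fyb and 554 ± 22.2 CPM of Skap2, which overlapped the Arpc4ΔCx3cr1 values, and 1386 ± 107 CPM of Apbb1ip, which did not. In cluster 8, led by Ccl4 and Ccl3, the genotypes stood apart for Fyb, with 595.9 to 633 CPM in control and 1080.4 to 1304 CPM in Arpc4ΔCx3cr1 mice. Cluster 5, led by Cst7 and Cxcl13, had 802 ± 102 CPM of Apbb1ip, 167 ± 10.6 CPM of Tln1 and 860.2 ± 73.6 CPM of Fyb in Arpc4ΔCx3cr1 mice. Cluster 10, led by Cst7, Cox6a2 and Spp1, had 309.7 ± 60.3 CPM of Apbb1ip, 403 ± 67.1 CPM of Fyb and 176 ± 49.3 CPM of Skap2, below every other cluster. Its median cell held 2607 UMIs. Of the 1638 cells of cluster 4, led by Xist and Fn1, 99.8% came from Arpc4ΔCx3cr1 mice, 1595 of them from KO1. In clusters 0, 4, 5, 8, 10, 11 and 15 no marker list stood clearly above the other clusters (best medians of -0.0104 to 0.0116 on the log2 scale). In clusters 1, 2 and 3 the microglia list was highest, with medians of 0.519, 0.945 and 0.704. All microglia-like clusters were named from the microglia markers above T cell-, B cell- and granulocyte-like clusters. These were 13 of 13 in clusters 0, 1, 2, 3 and 15, 12 in clusters 5 and 11, 9 in clusters 8 and 10, and 8 in cluster 4.

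A further cluster of 1297 cells, 97.5% of them from Arpc4ΔCx3cr1 mice, was led by globin genes and Ms4a7, and it stayed unnamed and outside the microglia-like class. In its Arpc4ΔCx3cr1 cells Fyb reached 1617 ± 269 CPM and Apbb1ip ranged from 477 to 662 CPM. Skap2 had 526 ± 93.0 CPM and Tln1 202 ± 22.4 CPM. This cluster was added to the microglia-like cells in a setting chosen after the data were seen. The log2 difference was then 0.82 for Fyb and -0.48 for Apbb1ip, and 8 members were called, beside 5864 of 12732 genes tested.

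**Figure D5:**
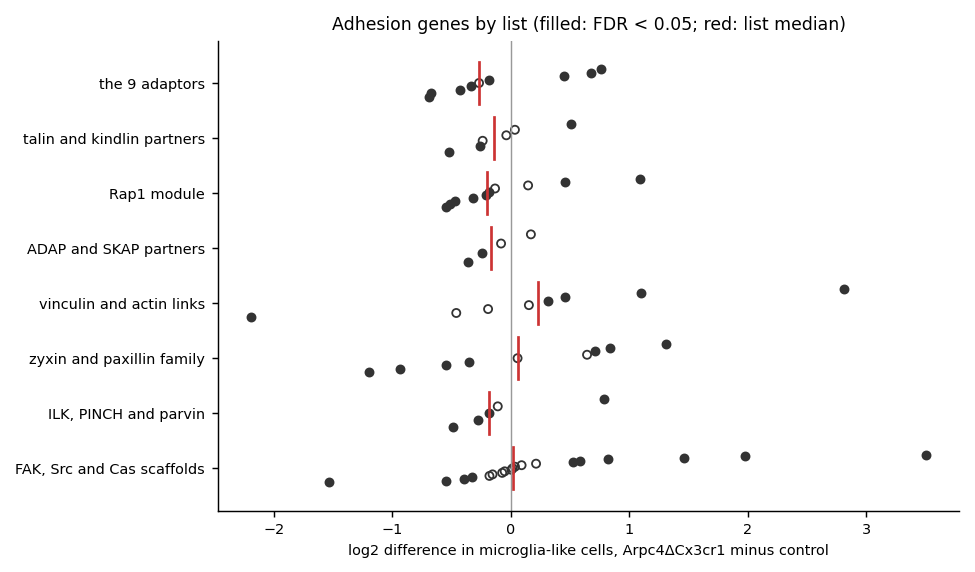
Log2 difference in microglia-like cells between Arpc4ΔCx3cr1 and control mice (x axis) of the 9 adaptors and of 7 lists of other adhesion genes (y axis); filled points have an edgeR adjusted p under 0.05 and red lines are list medians. The lists run to both sides of 0, with Fgr at 3.50 and Cass4 at -1.53 the widest apart in the last list.

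The counts for 7 lists of other adhesion genes stand beside 45.2% of all genes called, 22.5% higher and 22.7% lower, and a median log2 difference over all genes tested of -0.01. Of the Rap1 module 10 of 13 genes were tested, 2 rose and 6 fell, with a median of -0.20, among them Rassf5 (RAPL), a Rap1 effector of leukocytes (-0.55, edgeR adjusted p = 0.000317), and Rapgef2, a Rap1 activator (0.46, adjusted p = 5.83e-05). Of the talin and kindlin partners 6 of 10 were tested, 1 rose (Pip5k1c, which makes the lipid that talin binds, 0.51, adjusted p = 0.00175) and 2 fell, with Sharpin, an integrin inactivator, at -0.25 (adjusted p = 0.0144) and a median of -0.14. Of the partners of ADAP and SKAP, 4 of 7 were tested and 2 fell, with Vasp, an actin elongation factor, at -0.36 (adjusted p = 0.00157) and a median of -0.16. Of the ILK, PINCH and parvin genes 5 of 7 were tested, 1 rose (Parvb, 0.79, adjusted p = 5.46e-05) and 3 fell (Lims1, which encodes PINCH, by 0.48, adjusted p = 0.000868), with a median of -0.18.

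The other lists had medians above 0. Of the vinculin and actin links 8 of 9 were tested, 4 rose and 1 fell, with a median of 0.23, and Tns1, a tensin that joins integrin tails with actin, rose by 1.10 (adjusted p = 3.51e-06). Tns1 had 51.5 to 55.1 CPM in control and 95.3 to 131 CPM in Arpc4ΔCx3cr1 mice. Actn1 of the same list, at a low level, had 11.4 to 15.6 CPM in control and 2.61 to 3.64 CPM in Arpc4ΔCx3cr1 mice. In the zyxin and paxillin family 9 of 11 genes were tested, 3 rose and 4 fell, with a median of 0.06, Fblim1 (migfilin) at 1.31 (adjusted p = 2.16e-05) and Pdlim5 at -0.94 (adjusted p = 2.65e-05). Of the FAK, Src and Cas scaffolds 19 of 21 were tested, 6 rose and 4 fell, with a median of 0.02. Fgr, a Src family kinase of myeloid cells, rose from 7.26 to 15.3 CPM in control to 98.3 to 143 CPM in Arpc4ΔCx3cr1 mice (adjusted p = 3.45e-07). Cass4, a docking protein of the Cas family, fell from 38.1 to 42.3 CPM to 11.4 to 16.1 CPM (adjusted p = 9.49e-07).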

How the data were processed

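CD45+ brain cells of 8 mice were tagged by mouse, pooled and sequenced as 1 droplet library (10x Genomics 3′ chemistry) on 1 day. The deposited values are raw UMI counts per gene and cell, made by the authors with Cell Ranger (7.1.0 in the file headers, 6.1.2 in the submitters' processing notes) on mm10. Whether introns were counted is not given in the sources used here. A table of all barcodes served for empty droplets.

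Barcodes were kept if they showed 200 or more genes and no more than 20% of UMIs from mitochondrial genes, and were clustered in Seurat 5.3.0 (20 components, resolution 0.8, without the 9 adaptors and the adhesion lists) and named X-like from marker lists. The names were rebuilt here and may differ from those of the study. Droplets of 2 mice carry both tags and were left out of the deposited tables. No doublet caller was run for droplets of 1 mouse, and a mixed cluster was left out. UMIs were summed per mouse and class (at least 10 cells) and tested with edgeR 4.0.16 (quasi-likelihood, filterByExpr, TMM, Benjamini-Hochberg over all genes tested, threshold 0.05), with R 4.3.3. Differences between classes were tested as an interaction with mouse as covariate. Each SE given with edgeR was computed as the absolute log2 difference divided by the square root of the test's F statistic. Shares of cells were tested by exact two-sided permutation over mice (scipy 1.17.1). The scripts were tested on simulated data. Intervals cover counting error only.

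Groups came from the tag names in the labels, and the mice are the replicates. The labels do not mark the female mouse that the study left out, and KO1 alone had a high level of Xist. All 8 mice were used and each was left out in turn. Alternatives were DESeq2 1.42.0, library totals, no filter, a replicate block, free RNA, resolution 0.4 and other sets of cells. Named genes are the 9 members and the largest rise and fall past the threshold in each list (mean CPM of at least 10). Actn1, below that mean, was added after the data were seen. For each member the 3 genes of highest Pearson correlation of log2(CPM + 10) are also named, among genes with a mean of at least 20 CPM. The members and lists were chosen with earlier results of these data known. Bulk sequencing and imaging of the study were not analysed here.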

Additional observations from a re-analysis of the deposited data

Results flagged for a closer look

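Tln1 in microglia-like cells of KO1 was at 231 CPM, apart from the 199 to 203 CPM of the other 3 Arpc4ΔCx3cr1 mice and still below every control mouse. In T cell-like cells Apbb1ip was at 311 CPM in Ctrl3, below the 477 to 507 CPM of the other control mice, and at 322 CPM in KO2, below 512 to 540.2 CPM. Zyx was at 304 CPM in Ctrl1, above 121 to 145 CPM, and Fermt3 at 394 CPM in Ctrl3, above 242 to 261 CPM. Vcl was at 80.5 CPM in KO2 and at 0 in the other 3 Arpc4ΔCx3cr1 mice. In each case 1 mouse lay far from the other 3 of its group. The T cell-like sums rest on 10 to 33 cells per mouse. Of 54 groups of 4 mice checked 6 stood out in this way, and chance flags about 1 in 20.

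The genotype effect on Fyb differed between microglia-like and CAM-like cells by 0.91 on the log2 scale (edgeR adjusted p = 0.00133 for the difference itself). The median of all genes in that fit was 0.23, and with library totals the difference was 0.60 (adjusted p = 0.0893). Arpc4 was not called in CAM-like cells.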

How the results depend on the processing

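In microglia-like cells 7 or 8 members were called under each of the alternatives run, beside 4972 to 6288 genes over all. The members other than Fermt3 and Vcl were called in 133 of 133 fits, the main ones included. Fermt3 was called in 6 of 18 alternatives (adjusted p = 0.0507 in DESeq2, 0.0752 without a filter and 0.0022 without KO1). Vcl was called without KO4. With library totals the median of all genes in microglia-like cells moved from -0.01 to -0.11 and the share of calls that were higher from 49.8 to 34.3%, and no member changed sign. Zyx moved to -1.32 with 25% taken as free RNA.

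Between microglia-like and CAM-like cells 1 member (Fyb) was called, 0 with library totals and 1 to 2 with a mouse left out, the 2 being without KO2, where Skap2 joined. With library totals 64.0% of the calls over all genes were higher, against 83.7%. The cause was not tested. For shares of cells 8 members passed when thinned to 2000 UMIs, 9 when thinned to 1000, 0 without thinning (adjusted p = 0.0514 for 5 members at the smallest p the design allows) and 7 with any 1 mouse left out. Shares of cells were not computed over all genes.

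Calls over all genes went from 12 to 62 in CAM-like cells and from 1 to 12 in T cell-like cells without a filter. With a mouse left out they were 4 to 35 in CAM-like cells (35 without KO3, 34 without KO2), 0 in T cell-like cells and 153 to 217, against 260, for the difference between microglia-like and T cell-like cells. With the replicate block, 8 members were called in microglia-like cells, beside 5497 of 13193 genes tested. Over all genes, 14 were called in CAM-like and 3 in T cell-like cells. Mice of the same number did not deviate together (r = -0.07, -0.01, -0.05 and -0.02 over 12637 genes), which cannot show that they were unpaired. The numbers were taken to name mice only. The test and alternatives for monocyte-like cells were not run, since no control mouse reached the minimum of 10 such cells. With the CAM-like subcluster led by Cd209f alone, an alternative added after seeing the data, 0 members and 5 genes over all were called in it, and 1 member (Fyb) and 325 genes, against 601, for the difference from microglia-like cells. Depth limits the CAM-like and T cell-like classes, where 5 and 4 members could be tested.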

Other observations

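Some cells of Arpc4ΔCx3cr1 mice lay in the clusters that hold mostly control cells, and KO2 had the most, 227 cells. In these Arpc4 had 187 CPM by total UMIs, against 141 CPM in the 1696 cells of KO2 in the other microglia-like clusters. Apbb1ip had 1390.4 against 1068 CPM, Fermt3 345 against 267 CPM and Zyx 33.7 against 15.2 CPM, while Fyb had 901 against 1138 CPM and Skap2 435 against 538 CPM. Tln1 had 196 and 199 CPM and Pxn 43.9 and 41.8 CPM. In the 44 such cells of KO3 and the 17 of KO4 some of these went otherwise: Zyx had no count in either, against 13.7 CPM in the other clusters of KO3, Tln1 276 against 188 CPM and 316 against 193 CPM, and Fyb 1128 against 1209.6 CPM and 1143 against 1139 CPM. Arpc4 had 217 against 137 CPM in KO3 and 226 against 130.5 CPM in KO4, and Skap2 505 against 490.3 CPM and 286 against 540.1 CPM. KO1 had fewer than 10 such cells. No test was made.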
